A study of Glycine max with 36 samples.

Results

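The 4 h from subjective dawn to morning were followed in soybean leaves that had lost their daily light signal. Libraries from ZT4 and ZT28 (morning) were set against libraries from ZT0 and ZT24 (dawn), where ZT is the zeitgeber time in h. These are 12 of the 36 libraries of a 44-h course sampled every 4 h, chosen by their time labels, with 3 libraries at each time point. All came from unifoliolate leaves, the first simple leaves above the cotyledons, of Glycine max cultivar Williams 82, recorded as 11 days old. Seedlings grew for 9 days at 28 °C with 16 h of light and 8 h of dark, and entered constant conditions on day 10. The labels do not say whether those conditions were light or dark. Each library pooled leaves of 3 seedlings, and p-values therefore measure the variation among such pools.

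The plant circadian clock is a set of transcription factors that repress and activate each other in sequence through the day and keep a rhythm of about a day without light cues. Some of its factors act at dawn and others from midday to dusk, and their targets include genes of photosynthesis, growth, metabolism and defence. In plants moved to constant conditions, a change between dawn and morning that returns a day later is therefore read as a clock-driven rhythm in the usual design of such courses. None of the deposited identifiers (0 of 47011) matched the reference table of gene names, so genes are given by identifier and without a role. At most 2 rising and 2 falling identifiers are named for a comparison.

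Levels are FPKM, fragments mapped to a gene scaled by its length and by the mapped fragments of the library. Testing was restricted to the 27449 genes whose 36 libraries averaged 1 FPKM or higher. Summed FPKM ran from 681502 to 705875 over the 12 libraries. Absolute depth is unknown, but the steps between low values gave a relative depth of 0.966 to 1.10 in the morning libraries and 0.914 to 1.11 in the dawn libraries, as multiples of the median of the 12. Replicates of a time point correlated across genes with r of 0.979 to 0.991 on the log2 scale. In a principal component analysis of the 12 libraries the first component, with 51.5% of the variance, held the 6 morning libraries (20.5 to 54.9) above the 6 dawn libraries (-49.8 to -17.6). The second component, with 22.0%, held the 6 libraries of the second day (13.7 to 35.8) above those of the first day (-30.7 to -5.87).

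Between dawn and morning about as many genes rose as fell. With day as a covariate, 6711 genes (24.4%) were higher and 6992 (25.5%) were lower in the morning libraries. Most of these changes were shallow: the median called rise was 1.27-fold and the median called fall 1.31-fold. At least 1.5-fold was reached by 1590 rises (5.79%) and 1784 falls (6.5%), and at least 2-fold by 590 rises (2.15%) and 448 falls (1.63%). Beyond 4-fold lay 81 rises (0.295%) and 28 falls (0.102%), and beyond 8-fold 12 rises (0.0437%) and 2 falls (0.00729%). Genes were called by limma on log2(FPKM + 1) at a Benjamini-Hochberg adjusted p under 0.05. Fold changes are on that log2 scale unless given in FPKM, and the added 1 makes them too small for genes at low FPKM. With a pseudocount of 0.1 in place of 1, the 2-fold counts became 943 rises and 889 falls. Leaving out replicate 3 at all 4 times raised the count of 2-fold falls to 730, and leaving out replicate 1 lowered the count of all rises to 4300.

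The median gene had nearly the same FPKM in the morning and at dawn. The median log2 change over all tested genes was 0.00047, with values of 0.0049, -0.060 and 0.059 when replicates 1, 2 and 3 were taken alone. Values relative to the median gene of each library gave 6814 rises and 7228 falls, a share of rises of 48.5% against 49.0% as deposited. That rescaling sets the change of the median gene near 0, and FPKM are scaled by the mapped fragments of each library. A change common to all genes would therefore show in neither. Since FPKM are shares of a library from bulk leaf tissue, fewer cells of a type and less RNA per cell cannot be told apart for any of the falls.

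More genes passed the test at higher levels. Among 18069 genes with a mean of 1 to 10 FPKM over the 12 libraries, 23.9% rose and 21.7% fell. Among 7208 genes at 10 to 100 FPKM, 27.1% rose and 34.8% fell, and among 654 genes at 100 to 1000 FPKM, 27.4% rose and 45.7% fell. The 99 genes at 1000 FPKM or more stood the other way, with 53 rises (53.5%) and 29 falls (29.3%). Their log2 changes ran from -2.13 to 1.25 with a median of 0.19, and together they held 38.9% of the summed FPKM in the morning libraries and 38.2% in the dawn libraries on average. Rises of at least 2-fold were most frequent at 100 to 1000 FPKM (4.28%) and falls of that size at 1000 FPKM or more (4.04%, or 4 genes). Low genes also rest on fewer fragments, and the part of precision in these shares was not tested.

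**Figure D1:**
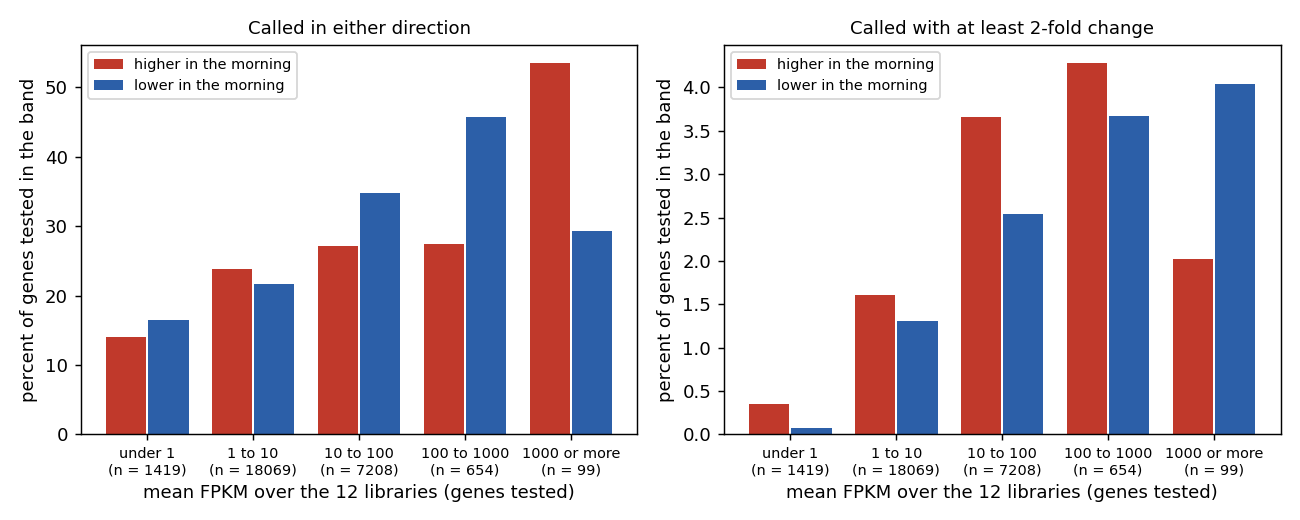
Share of tested genes (percent, vertical axis) that were higher (red) or lower (blue) in the morning libraries, by mean FPKM over the 12 libraries (horizontal axis, genes tested in brackets), for all calls (left) and for calls of at least 2-fold (right). Rises outnumber falls at 1000 FPKM or more (53.5% and 29.3%), and falls outnumber rises from 100 to 1000 FPKM (45.7% and 27.4%).

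The called genes held a large part of the summed FPKM both at dawn and in the morning. The 6711 called rises held 42.4% ± 0.73 of the summed FPKM at ZT4, against 27.9% ± 0.96 at ZT0, and 41.8% ± 2.41 at ZT28, against 28.5% ± 0.74 at ZT24 (SD, n = 3 each). The 6992 called falls held 33.2% ± 0.86 at ZT4, against 47.8% ± 0.64 at ZT0, and 32.2% ± 2.41 at ZT28, against 45.4% ± 1.22 at ZT24. The genes were picked by their change, so these shares describe how much of the library they held and carry no test. Because FPKM are shares, a gain of the rises goes with a loss of other genes.

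The step was next asked for on each day by itself. The days share no library, but both were tested with a common estimate of each gene's spread over the 12 libraries. On the second day 4982 genes rose (18.2%) and 4576 fell (16.7%) from ZT24 to ZT28, and on the first day 4511 rose (16.4%) and 5530 fell (20.1%) from ZT0 to ZT4. Of all tested genes 81.0% had the same sign of change on both days. The changes of the 2 days correlated across genes with r of 0.84 and Spearman's rho of 0.82, which is a description, since genes of a library are not independent of each other. A gene was said to repeat when it was called over both days together and was also called, with the same sign, for the step of each day. By this rule 3380 rises (12.3%) and 3661 falls (13.3%) repeated. Without replicate 1 these counts were 1621 and 1604, and without replicate 2 they were 2013 and 1651. Calls of opposite sign on the 2 days were made for 24 genes (0.0874%). The repeating calls were 50.4% of the called rises and 52.4% of the called falls, while the sign alone was the same on both days in 6699 of 6711 rises and 6982 of 6992 falls. The called changes and the daily signs come from the same libraries, so these last shares are near complete by construction.

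Large changes repeated more often than small ones, in the same libraries that called them. Of the 590 rises of at least 2-fold, 570 (96.6%) repeated, and of the 448 such falls, 395 (88.2%) did. Among smaller calls the shares were 45.9% of 6121 rises and 49.9% of 6544 falls. The 570 repeated rises make up 2.08% of the tested genes and the 395 repeated falls 1.44%, and both sets are described from here on. Without replicate 3 the repeated falls numbered 632, and with a pseudocount of 0.1 there were 858 rises and 724 falls. Relative to the median gene 569 of the 570 rises and 394 of the 395 falls met the same rule.

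**Figure D2:**
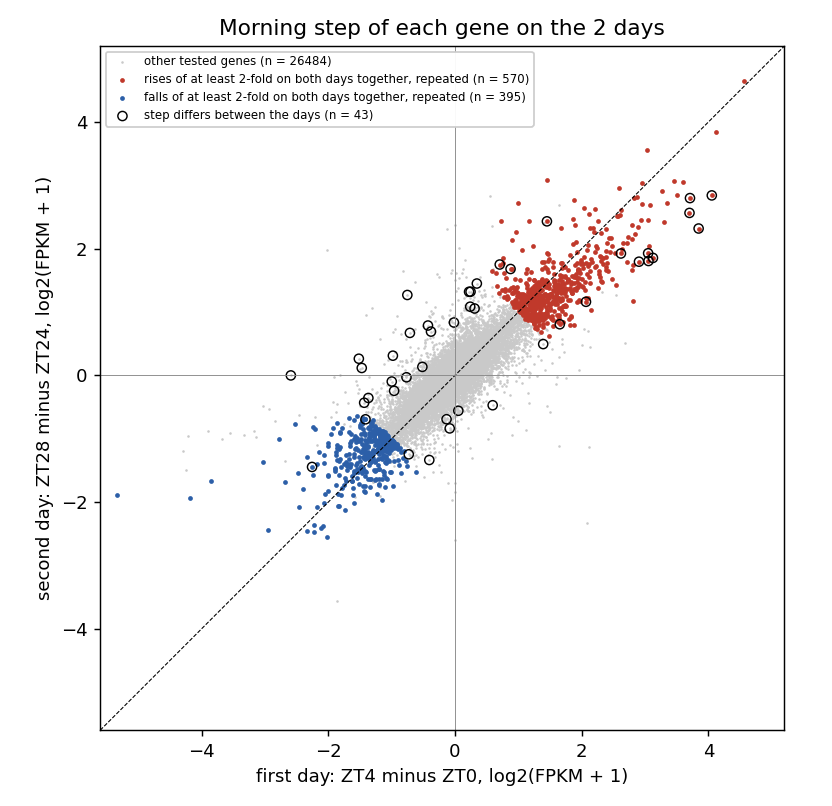
Log2 change of each tested gene on the first day (ZT4 minus ZT0, horizontal axis) and on the second day (ZT28 minus ZT24, vertical axis), both on log2(FPKM + 1). Red and blue points are the 570 repeated rises and 395 repeated falls, grey points the other genes, circles the 43 genes whose step differed between the days, and the dashed line marks equal steps. Most points lie along the line, and 170 of the 570 red points lie above it.

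The 570 repeated rises had a median log2 change of 1.34 (quartiles 1.16 and 1.66), or 2.54-fold. All 6 morning libraries lay above all 6 dawn libraries for 533 of them (93.5%), against 3044 of all tested genes (11.1%), and the 3 morning libraries lay above the 3 dawn libraries on each day for 566. The choice of the genes fixes most of this separation. Their median level on the log2 scale was 3.92 ± 0.048 at ZT4, against 2.28 ± 0.037 at ZT0, and 4.08 ± 0.16 at ZT28, against 2.65 ± 0.078 at ZT24 (SD, n = 3 libraries each). They held 4.85% ± 0.11 of the summed FPKM at ZT4, against 1.66% ± 0.085 at ZT0, and 4.95% ± 0.51 at ZT28, against 1.89% ± 0.043 at ZT24. At dawn 60 of them (10.5%) averaged under 1 FPKM on both days, and 6 of these averaged at least 5 FPKM on both mornings. Such genes were not counted among all tested genes.

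The 395 repeated falls had a median log2 change of -1.21 (quartiles -1.46 and -1.08), a drop of 2.32-fold. All 6 morning libraries lay below all 6 dawn libraries for 307 of them (77.7%), against 2772 of all tested genes (10.1%), and the groups of 3 stood apart on each day for 373. Here too the choice of the genes fixes most of the separation. Their median level was 2.57 ± 0.095 at ZT4, against 3.97 ± 0.051 at ZT0, and 2.41 ± 0.20 at ZT28, against 3.68 ± 0.15 at ZT24. They held 1.15% ± 0.078 of the summed FPKM at ZT4, against 3.23% ± 0.11 at ZT0, and 1.01% ± 0.13 at ZT28, against 2.50% ± 0.091 at ZT24. In the morning 23 of them (5.82%) averaged under 1 FPKM on both days, again without a count over all tested genes.

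The morning pools of the second day were less alike than those of the first. The median level of the rising genes was 4.22 and 4.11 in ZT28 replicates 1 and 2 and 3.90 in replicate 3, while the 3 ZT4 libraries lay between 3.87 and 3.97. For the falling genes the values were 2.25 and 2.34 in ZT28 replicates 1 and 2 and 2.64 in replicate 3. On the first principal component ZT28 replicate 3 stood at 31.3 against 54.9 and 47.3 in replicates 1 and 2, so it was the ZT28 library nearest to dawn on all 3 measures. Without it 613 rises and 464 falls of at least 2-fold repeated.

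Among genes averaging 10 FPKM or higher over the 12 libraries, the 12 largest repeated rises had log2 changes of 2.86 to 4.60, with adjusted p-values of 4.19e-07 or less (limma). In all 12 the 6 morning libraries lay above the 6 dawn libraries, which follows in part from picking them by their change in these libraries. The step was larger on the second day in 2 of the 12, with log2 changes of 2.32 to 4.64 on the second day and 3.02 to 4.55 on the first.

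GLYMA20G02220 rose most among them. It had 46.9, 56.7 and 44.9 FPKM at ZT4, against 0.992, 0.925 and 1.55 FPKM at ZT0. On the second day it had 69.8, 66.2 and 35.7 FPKM at ZT28, against 0.968, 1.21 and 1.59 FPKM at ZT24. The lowest morning library was thus far above the highest dawn library on both days, and ZT28 replicate 3 was the lowest of the morning libraries. The mean was 42.8-fold higher at ZT4 than at ZT0 and 45.5-fold higher at ZT28 than at ZT24 in FPKM. The log2 change was 4.60 ± 0.15 (SE, adjusted p = 4.95e-10, limma), and 4.69 relative to the median gene. With a pseudocount of 0.1 it was 5.35.

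GLYMA01G00500 had 40.6, 42.5 and 37.1 FPKM at ZT4, against 1.61, 0.899 and 1.66 FPKM at ZT0. It had 43.0, 47.8 and 35.5 FPKM at ZT28, against 1.23, 2.42 and 2.43 FPKM at ZT24. Morning values of the 2 days overlapped, and none came near the dawn values. Its log2 change was 3.98 ± 0.13 (SE, adjusted p = 4.95e-10, limma), or 28.8-fold in mean FPKM on the first day and 20.8-fold on the second.

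These genes did not peak in the morning. GLYMA20G02220 went on to 140 ± 24.3 FPKM at ZT8 and 149 ± 12.0 at ZT12, was at 3.24 ± 0.52 at ZT20, and stood at 134 ± 8.29 at ZT32 and 163 ± 8.18 at ZT36 (SD, n = 3). GLYMA01G00500 had 103 ± 6.24 FPKM at ZT8, 65.8 ± 11.7 at ZT12 and 1.15 ± 0.17 at ZT20. On the next day it had 98.1 ± 10.3 FPKM at ZT32, 101 ± 5.44 at ZT36 and 2.06 ± 0.30 at ZT44. In both, the ZT4 and ZT28 levels were thus below those of the next 2 time points.

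Among genes at the same minimum of 10 FPKM, the 12 largest repeated falls had log2 changes of -3.60 to -1.96, with adjusted p-values of 0.000548 or less (limma), and the 6 morning libraries lay below the 6 dawn libraries in 10 of them. Picking them by their change fixes part of this separation too. The fall was larger on the second day in 4 of the 12. Their steps ran from -2.55 to -1.37 on the second day and from -5.33 to -2.02 on the first.

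GLYMA17G12804 fell most among them. It had 2.73, 6.27 and 33.9 FPKM at ZT4, against 404, 502 and 300 FPKM at ZT0. On the second day it had 39.1, 143 and 115 FPKM at ZT28, against 335, 307 and 323 FPKM at ZT24. All morning values lay below all dawn values, but the ZT4 libraries spread over more than 10-fold and all ZT28 libraries were above all ZT4 libraries. The log2 change was -3.60 ± 0.66 (SE, adjusted p = 0.000548, limma). It was -1.88 ± 0.66 on the second day (adjusted p = 0.0443) and -5.33 ± 0.66 on the first (adjusted p = 6.88e-05), and the difference between the days was not called (adjusted p = 0.196).

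GLYMA05G21780 had 4.23, 4.80 and 17.2 FPKM at ZT4, against 155, 155 and 137 FPKM at ZT0. It had 18.4, 45.5 and 67.8 FPKM at ZT28, against 154, 139 and 157 FPKM at ZT24. Dawn levels of the 2 days were alike within the spread of the pools, and replicate 3 was the highest morning library on both days. The log2 change was -3.06 ± 0.45 (SE, adjusted p = 9.19e-05, limma).

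Both falling genes had their lowest means at ZT4 or ZT8 and at ZT32, and were high again at ZT20 and ZT44. GLYMA17G12804 stood at 4.01 ± 4.75 FPKM at ZT8, 25.9 ± 13.1 at ZT12 and 245 ± 83.5 at ZT20, and at 1.67 ± 0.26 at ZT32 and 636 ± 78.5 at ZT44 (SD, n = 3). GLYMA05G21780 stood at 8.73 ± 7.31 FPKM at ZT4, 9.37 ± 5.29 at ZT8 and 50.4 ± 16.7 at ZT16, and at 4.13 ± 0.39 at ZT32 and 211 ± 27.9 at ZT44. On the second day the lowest mean of each came at ZT32 and not at ZT28. The pools then spread widely at ZT36 and ZT40. GLYMA17G12804 had 57.1 ± 53.7 and 310 ± 236 FPKM at these times, and GLYMA05G21780 had 25.2 ± 19.0 and 140 ± 117.

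**Figure D3:**
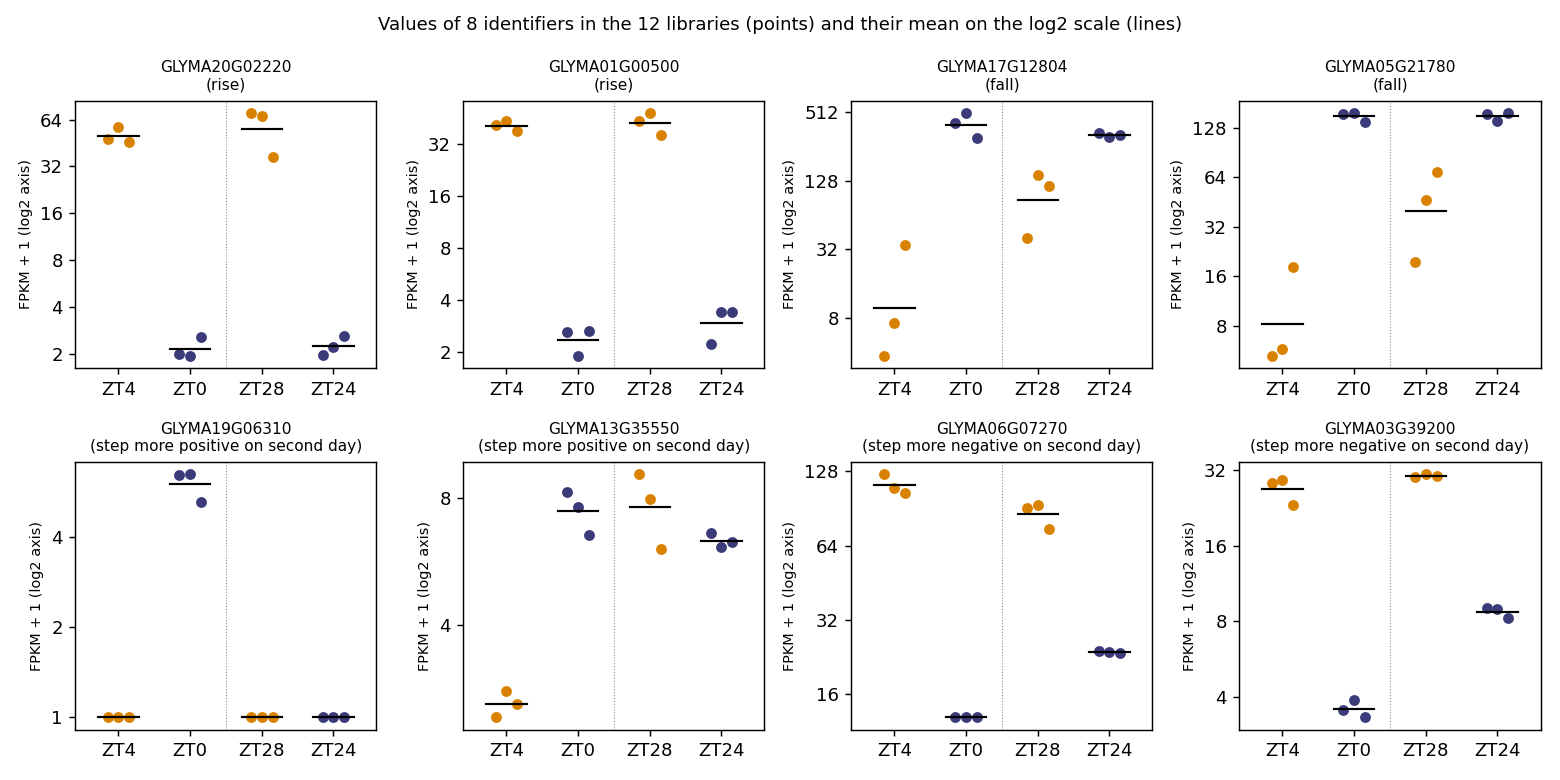
FPKM + 1 on a log2 axis in each of the 12 libraries (points, 3 per time point) for 8 identifiers, with morning libraries in orange and dawn libraries in blue. Black lines are means on the log2 scale and the dotted line separates the days. In the upper row GLYMA20G02220 and GLYMA01G00500 are higher in every morning library and GLYMA17G12804 and GLYMA05G21780 lower. The lower row holds identifiers whose step differed between the days.

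Over the whole course, the rising genes formed a daytime wave and the falling genes a night wave. Each gene's average over the 12 time points was subtracted from its log2 level. The median rising gene stood at -1.19 at ZT0, 0.29 at ZT4, 0.99 at ZT8, 0.64 at ZT12, -0.34 at ZT16 and -1.20 at ZT20. It passed through -0.88 at ZT24, 0.46 at ZT28, 1.07 at ZT32, 0.96 at ZT36, 0.11 at ZT40 and -0.79 at ZT44. The median falling gene stood at 0.88 at ZT0, -0.47 at ZT4, -0.91 at ZT8, -0.23 at ZT12, 0.79 at ZT16 and 1.01 at ZT20. Its values on the second day were 0.52 at ZT24, -0.70 at ZT28, -1.01 at ZT32, -0.67 at ZT36, 0.25 at ZT40 and 0.75 at ZT44. The values at ZT0, ZT4, ZT24 and ZT28 are those that chose the genes. The median of all tested genes moved far less, between -0.22 and 0.24.

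**Figure D4:**
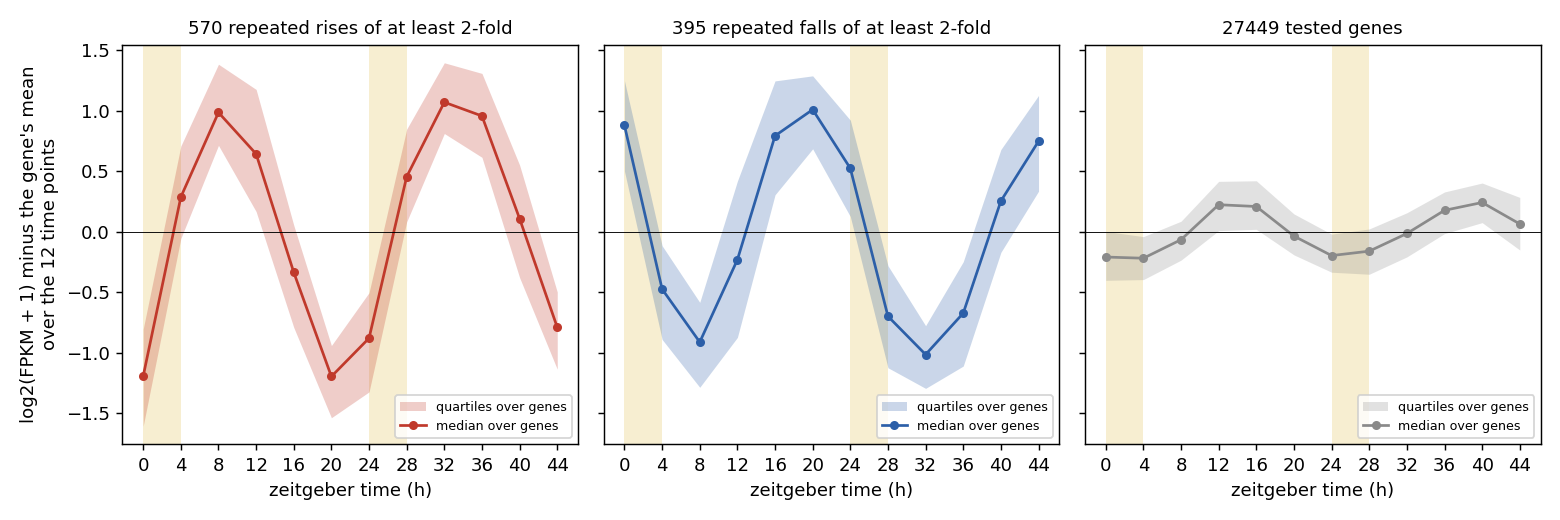
Median (points) and quartiles (bands) over genes of log2(FPKM + 1) minus the gene's mean over the 12 time points (vertical axis) at each zeitgeber time in h (horizontal axis), for the 570 repeated rises, the 395 repeated falls and all 27449 tested genes. Shaded columns mark the intervals from ZT0 to ZT4 and from ZT24 to ZT28 that chose the genes. Rising genes are highest at ZT8 and ZT32, and falling genes are lowest there.

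Most of the rising genes were highest after the morning. The highest time point mean of the first 24 h came at ZT4 for 51 of the 570 (8.95%), at ZT8 for 325 (57.0%) and at ZT12 for 190 (33.3%). In the second 24 h it came at ZT28 for 41 (7.19%), at ZT32 for 278 (48.8%) and at ZT36 for 249 (43.7%). Of all tested genes 4.55% were highest at ZT4, 7.18% at ZT8 and 37.6% at ZT12, and 4.38% at ZT28, 9.88% at ZT32 and 24.6% at ZT36. The share at ZT12 was thus no higher among the rising genes than among all genes. The rising genes had their lowest mean at ZT0 (45.6%) or ZT20 (41.4%) in the first 24 h, against 33.6% and 9.01% of all tested genes. Values at ZT0, ZT4, ZT24 and ZT28 chose the rising genes, so their shares at those times follow in part from the choice. The time of day of the highest mean was the same on both days for 435 of the 570 (76.3%), against 54.4% of all tested genes.

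Falling genes peaked from ZT16 to ZT0. In the first 24 h 133 of the 395 (33.7%) were highest at ZT16, 165 (41.8%) at ZT20 and 89 (22.5%) at ZT0, against 32.2%, 13.0% and 5.58% of all tested genes at the same times. In the second 24 h 144 (36.5%) were highest at ZT24, 90 (22.8%) at ZT40 and 159 (40.3%) at ZT44, against 7.02%, 38.4% and 15.8% of all tested genes. The share at ZT16 was thus close to that of all genes and the share at ZT40 below it. Their lowest mean came at ZT8 for 223 (56.5%) and at ZT4 for 95 (24.1%) on the first day, and at ZT32 for 186 (47.1%) and ZT28 for 84 (21.3%) on the second. Of all tested genes 14.0% were lowest at ZT8 and 32.1% at ZT4, and 11.3% at ZT32 and 28.3% at ZT28. The falling genes were chosen by their values at ZT0, ZT4, ZT24 and ZT28. Their shares at those times therefore follow in part from the choice, and none could be highest at ZT4 or ZT28. The time of day of the highest mean was the same on both days for 230 of the 395 (58.2%), close to the 54.4% of all tested genes. Genes of both sets were chosen to repeat their step on both days.

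**Figure D5:**
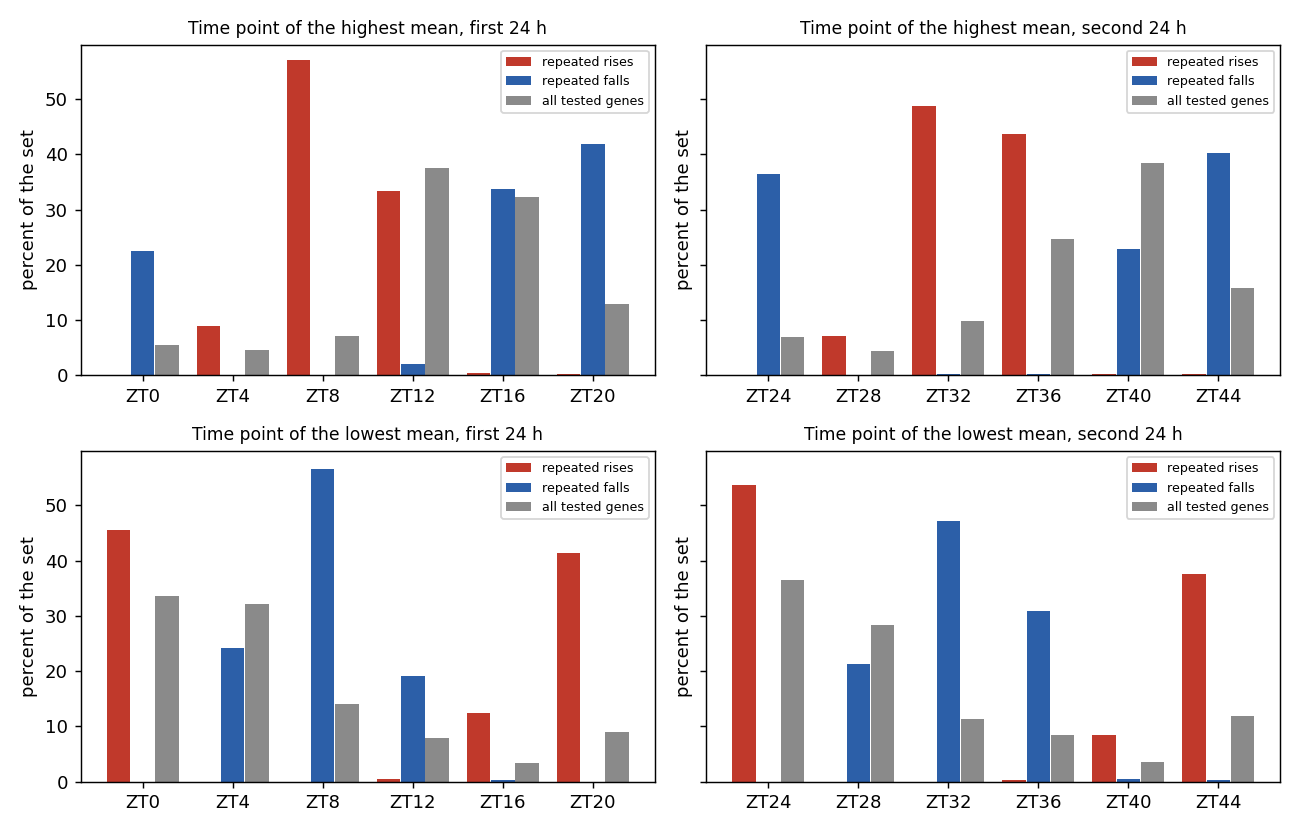
Share of genes (percent, vertical axis) whose highest (upper row) or lowest (lower row) time point mean fell at each zeitgeber time (horizontal axis), in the first 24 h (left) and the second 24 h (right), for the repeated rises (red), the repeated falls (blue) and all tested genes (grey). At ZT8 57.0% of the rising genes and 7.18% of all genes are highest, and at ZT20 41.8% of the falling genes and 13.0% of all genes are.

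Beyond the filter on the mean level, the evening libraries took no part in choosing these genes. The choice does favour a return between ZT4 and ZT24, since the same step was required again from ZT24. The direction of the first evening change is therefore not free of the choice, while its timing is. From ZT12 to ZT16 the rising genes had a median log2 change of -0.97 (quartiles -1.38 and -0.65), and from ZT36 to ZT40 one of -0.83 (quartiles -1.22 and -0.53). Only 14 of the 570 had a higher mean at ZT16 than at ZT12, and 8 a higher mean at ZT40 than at ZT36. The falling genes had median changes of 0.95 and 0.92 over the same intervals, and 384 and 390 of the 395 were higher at the later time. Of all tested genes 50.7% and 63.0% were higher at the later time, with medians of 0.0043 and 0.081. No test was made of these evening changes. The step that follows the morning shares the ZT4 and ZT28 libraries with the one described here. Over it the rising genes had median changes of 0.66 (ZT8 minus ZT4) and 0.64 (ZT32 minus ZT28), and the falling genes of -0.40 and -0.35.

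In the repeated 2-fold sets the step was somewhat smaller on the second day. Over all called genes, 3419 of 6711 rises (50.9%) and 2707 of 6992 falls (38.7%) were larger on the second day. Among the 570 repeated rises the median log2 step was 1.29 on the second and 1.42 on the first day. Their median ratio of the second to the first step was 0.877 (quartiles 0.758 and 1.04), and it was 0.930, 0.888 and 0.818 when replicates 1, 2 and 3 were taken as separate courses. The step was larger on the second day for 170 of them (29.8%). Among the 395 repeated falls the median steps were -1.15 and -1.29, and the median ratio was 0.912 (quartiles 0.748 and 1.06). Replicates 1, 2 and 3 gave ratios of 1.01, 0.967 and 0.684 for the falls, so the smaller ratio of the falls rested on the libraries numbered 3. These courses join separate pools by their number only, and the numbers were not shown to pair the pools. For the rising genes the dawn level differed more between the days than the morning level. Their median level was 2.65 ± 0.078 at ZT24 against 2.28 ± 0.037 at ZT0, and 4.08 ± 0.16 at ZT28 against 3.92 ± 0.048 at ZT4.

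Few single genes were called for a step that differed between the days. How many true differences this contrast would miss was not tested. The contrast of the second with the first step was called for 43 genes (0.157%) by limma with Benjamini-Hochberg adjustment, while 2591 (9.44%) had an unadjusted p under 0.05. Of the 43, 20 rose on both days and 11 fell on both days. Among these 31, 19 had the smaller step on the second day and 12 the larger. A further 9 had a fall on the first and a rise on the second day, 2 had the opposite order, and 1 was listed at 0 in all libraries of ZT28 and ZT24. Relative to the median gene 38 of the 43 were called. The count moved with the libraries used: it was 1 without replicate 2, 4 without replicate 1 and 151 without ZT28 replicate 3, and between 8 and 22 without any one of ZT4 replicate 1 or 2, ZT28 replicate 2 or any of the 6 dawn libraries. It was 97 without ZT4 replicate 3 and 90 in a fit over all 36 libraries, of which 27 were among the 43.

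GLYMA06G07270 had the smallest p-value among genes with a more negative step on the second day. It had 90.1, 92.1 and 74.0 FPKM at ZT28, against 23.0, 22.8 and 22.6 FPKM at ZT24. On the first day it had 124, 108 and 104 FPKM at ZT4, against 11.9, 11.9 and 11.9 FPKM at ZT0. Every ZT24 library was thus above every ZT0 library, and every ZT28 library below every ZT4 library. The log2 step was 1.85 on the second and 3.12 on the first day, a difference of -1.27 ± 0.12 (SE, adjusted p = 0.0038, limma). Without replicate 2 at all times the difference was -1.35 with an adjusted p of 0.347, and over all alternatives the adjusted p ran from 0.00101 to 0.347.

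GLYMA03G39200 also rose less on the second day, with a log2 step of 1.79 on the second and 2.90 on the first day and a difference of -1.11 ± 0.13 (SE, adjusted p = 0.0112, limma). It had 29.0, 29.8 and 29.3 FPKM at ZT28, against 8.05, 7.99 and 7.26 FPKM at ZT24. It had 27.4, 28.2 and 22.3 FPKM at ZT4, against 2.54, 2.91 and 2.32 FPKM at ZT0. Its dawn level was higher on the second day, while the morning levels lay close together. Without replicate 1 the difference was -1.03 with an adjusted p of 0.373, and over all alternatives the adjusted p ran from 0.00195 to 0.373.

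In GLYMA13G35550 a fall on the first day was not followed by one on the second. It had 8.13, 6.98 and 5.06 FPKM at ZT28, against 5.63, 5.12 and 5.29 FPKM at ZT24, where the groups overlapped. On the first day it had 1.41, 1.80 and 1.61 FPKM at ZT4, against 7.29, 6.63 and 5.53 FPKM at ZT0. The log2 step was 0.26 (adjusted p = 0.157) on the second and -1.52 on the first day (adjusted p = 5.82e-06), with a difference of 1.78 ± 0.19 (SE, adjusted p = 0.00847, limma). Without replicate 2 the difference was 1.76 with an adjusted p of 0.347, and over all alternatives the adjusted p ran from 0.000779 to 0.347.

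GLYMA19G06310 had the smallest p-value of the 43, and it was at 0 in most of the 12 libraries. It was listed at 0 in all libraries of ZT28, ZT24 and ZT4, and had 5.44, 5.48 and 4.24 FPKM at ZT0. It was listed at 0 in 19 of the 36 libraries, and 4.24 FPKM was its lowest value above 0. The difference of 2.59 between the days on the log2(FPKM + 1) scale had an adjusted p of 6.87e-06 (limma). In the fit over all 36 libraries the adjusted p was 0.824, and over all alternatives it ran from 3.61e-06 to 0.824.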

How the data were processed

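The authors deposited 1 table of FPKM values with 1 column per library, each matched to a sample by its title. Per the submitters' processing notes, TopHat2 (2.1.0) was used, as was HTSeq (0.6.0). Neither their roles nor the FPKM software, genome build or gene models are given in the sources used here. FPKM are shares of a library, so no count model was used.

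From these values log2(FPKM + 1) was tested with the trended moderated fit of limma (3.58.1, under R 4.3.3), for the 27449 genes averaging 1 FPKM or higher across all 36 libraries. The step was fitted over 12 libraries with day as a covariate, and the steps of each day and their difference with the 4 time points as a factor. Median-ratio rescaling gave values relative to the median gene. Relative depth is the inverse of the most frequent ratio between libraries of values under 0.1 FPKM. The fit was tested on simulated data.

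Named identifiers are the largest repeated changes among 12 per direction at a mean of at least 10 FPKM, and the smallest p-values among 3 per direction for the difference between the days. The comparison, the lists and the naming rule were chosen with earlier results of these data known. Planned gene lists, markers of leaf and other cells and promoter motifs could not be resolved, because 0 of 47011 identifiers matched the 59048 reference genes. The tissue label was therefore not checked against markers. Replicate numbers were not used as pairs in the main fit: deviations of same-numbered libraries correlated with r of -0.25 to 0.33, above 0.1 in 4 of 18 pairs. Those 4 joined the same time of day, with r of 0.33 and 0.31 (ZT0 and ZT24) and of 0.18 and 0.24 (ZT4 and ZT28). Same-numbered libraries of ZT24 and ZT28 had r of -0.23, -0.14 and -0.25.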

Additional observations from a re-analysis of the deposited data

Results flagged for a closer look

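The difference between the second and the first morning step was tested directly, and 43 genes passed. Among them GLYMA19G06310 had a difference of 2.59 on the log2 scale and GLYMA13G35550 one of 1.78, both more positive on the second day. GLYMA19G06310 was listed at 0 in 19 of the 36 libraries, and its adjusted p was 0.824 in the limma fit over all 36. GLYMA06G07270 had a difference of -1.27 and GLYMA03G39200 one of -1.11. With 3 libraries at each time point, no test for single libraries far from the others was made.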

How the results depend on the processing

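All 4 identifiers named for the step kept their direction and stayed past the threshold under 23 alternatives. With 0.1 as pseudocount the 2-fold counts were 943 rises and 889 falls, of which 858 and 724 repeated. Restricting the test to the 9407 genes averaging 10 FPKM or higher tests fewer genes, and 2692 rose and 3231 fell, 370 and 227 of them by at least 2-fold. There 1772 rises and 2012 falls repeated, 363 and 200 of them of at least 2-fold. The count of genes whose step differed between the days was 27 with no filter, 74 with quantile normalization, 90 in the fit over 36 libraries and 19 with the replicate number as a block, and the cause was not tested. The replicate block moved no other count by over 1.5 times. With replicates or single libraries left out, rises ran from 4300 to 6954 and falls from 4667 to 7664. At 2-fold they ran from 545 to 645 and from 339 to 730. Repeated rises ran from 1621 to 3489, repeated falls from 1604 to 3892, those of at least 2-fold from 504 to 616 and from 270 to 632, and differing steps from 1 to 151. The median log2 change ran from -0.028 to 0.031. The filter on the mean over the 12 libraries was added after the data were seen and moved no count by over 1.5 times. Alternatives for gene lists were not run.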
